A study of Mus musculus with 4 samples.

Results

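Genes of sodium uptake by the collecting duct, 10 in number, namely the sodium channel subunits Scnn1a, Scnn1b and Scnn1g, the receptor Nr3c2, the enzyme Hsd11b2, the regulators Sgk1, Nedd4l and Tsc22d3, the potassium channel Kcnj1 and the pump regulator Fxyd4, were read from an expression table of 38201 genes. All 10 symbols were found once each. The table holds RNA-Seq values of sorted embryonic mouse kidney cells, given as FPKM, that is, fragments scaled by transcript length and by the size of the library. There were 2 libraries from E18.5 embryos of genotype Esrp1 -/-, Esrp2 -/- (DKO) and 2 from E18.5 control embryos of genotype Esrp1 +/+, Esrp2 -/-, so that every embryo lacked Esrp2 and the groups differed in Esrp1. Both alleles were null throughout the embryo, not only in the kidney. Cells were sorted with the lectin Dolichos biflorus agglutinin (DBA), which binds ureteric epithelium, and each library was made from RNA pooled from 3 embryos. The comparison asks how loss of the epithelial splicing factor Esrp1 bears on transcript levels in these cells.

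The epithelial sodium channel (ENaC) lets sodium enter principal cells of the collecting duct from the urine. It is built of the subunits α, β and γ, encoded by Scnn1a, Scnn1b and Scnn1g. Aldosterone binds the mineralocorticoid receptor, encoded by Nr3c2, and raises channel activity in part through the kinase Sgk1, which keeps the ubiquitin ligase Nedd4l from removing the channel from the membrane. The enzyme encoded by Hsd11b2 inactivates corticosterone and so reserves the receptor for aldosterone.

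The label of the sorted cells was checked against markers. The 14 markers of ureteric epithelium, such as Hoxb7, Ret and Wnt11, summed to 1493 and 1576 FPKM in DKO libraries against 1217 and 1436 in control libraries, with 7 above both controls and 1 below both. The 7 principal cell markers, such as the water channel Aqp2, summed to between 460 and 812. Esrp1 itself was listed at 7.29 to 8.65 FPKM in DKO libraries against 27.0 to 31.4 in control libraries. The authors reported loss of Esrp1 in both DKO replicates by real-time PCR. A single FPKM per gene does not show which exons the remaining Esrp1 fragments come from, and their source was not tested. Judged by the step size of very low FPKM, and with DKO replicate 1 set to 1, relative depth was 1.09 for DKO replicate 2, 0.511 for control replicate 1 and 1.10 for control replicate 2, and read totals are not used here. Mitochondrial transcripts made up 18.6 to 19.1% of the summed FPKM of DKO libraries and 23.2 to 25.5% of that of control libraries, and their part in the results was not tested beyond a rescaling without them. Markers of other cells were present and differed between the groups. In the DKO libraries 8 of 8 stroma markers and 5 of 6 endothelial markers lay above both controls. Below both lay 8 of 8 proximal tubule and 7 of 7 leukocyte markers. Among all genes tested, 20.8% lay above both controls and 22.6% below both. In bulk RNA of this kind, fewer cells of a type and less RNA per cell cannot be told apart.

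At E18.5 all 10 genes were expressed in the sorted cells of both genotypes, and the α subunit stood furthest from its control level. Scnn1a averaged 5.65 ± 0.697 FPKM in DKO libraries and 13.9 ± 2.44 in the controls (SD, n = 2 each), or 40.6% of the control average. Kcnj1 averaged 52.3% of its control level, and the other 8 genes lay between 77.1% and 106%. Across all 18884 genes tested, 0 of the 10 passed the test at an adjusted p under 0.05 with at least a 2-fold difference, by limma with Benjamini-Hochberg adjustment. That rule called 0.00530% of all genes lower and 0.0159% higher in DKO libraries. The paper, with a like 2-fold limit and a false discovery rate under 0.05, reported many more transcripts changed in these libraries. A gene not called here is thus not shown to be unchanged. At an unadjusted p under 0.05, 3 of the 10 were lower (Scnn1a, Kcnj1 and Tsc22d3) and 0 were higher, against 7.35% and 3.35% of all genes. That count depended on the setting, since the unadjusted limma p of Tsc22d3 was 0.103 with values rescaled to TPM and 0.0821 without a variance trend.

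The 2 DKO libraries lay below both controls for 5 of the 10 genes (Scnn1a, Scnn1b, Nr3c2, Kcnj1 and Tsc22d3) and above both for 0, against 22.6% and 20.8% of all genes. Only Scnn1a differed by at least 2-fold in average FPKM, as did 9.91% of all genes in that direction. The median log2 fold change of the 10 genes, DKO over control on the scale of log2(FPKM + 0.5), was -0.25, beside -0.0092 over all genes tested. For any 1 gene the smallest p that exact permutation of 2 and 2 libraries allows is 0.333.

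**Figure D1:**
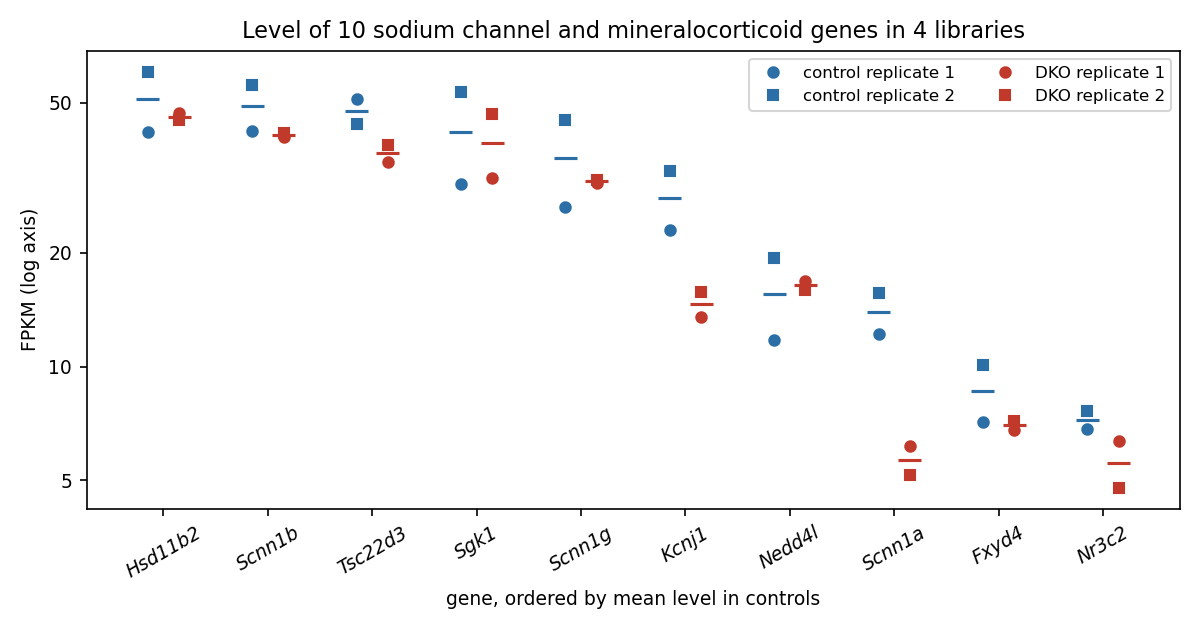
FPKM on a log axis of the 10 genes in each library, with circles for replicate 1, squares for replicate 2 and a short line for the group mean, controls in blue and DKO in red. The DKO points of Scnn1a (5.16 and 6.15) and Kcnj1 (13.5 and 15.7) sit clear of the control points, while for Scnn1g, Hsd11b2, Sgk1 and Nedd4l both DKO points lie between the controls.

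Scnn1a encodes the α subunit, which the channel needs to reach the membrane and conduct. It was listed at 6.15 and 5.16 FPKM in DKO replicates 1 and 2 and at 12.2 and 15.7 FPKM in control replicates 1 and 2. The lower control was thus 1.99 times the higher DKO library. The log2 fold change was -1.22 (standard error 0.192, 95% interval -1.72 to -0.73), with an adjusted p of 0.365 by limma. With each library left out in turn it ranged from -1.40 to -1.05.

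The β subunit gene Scnn1b was listed at 40.6 and 41.5 FPKM in DKO libraries against 42.1 and 55.5 in control libraries. The DKO values were below both controls, but the lower control was only 1.02 times the higher DKO value (log2 fold change -0.24, adjusted p = 0.650 by limma). The log2 fold change of Scnn1b was -0.43 without control replicate 1 and -0.0375 without control replicate 2. The γ subunit gene Scnn1g stood at 30.7 and 31.2 FPKM against 26.4 and 45.0, so that both DKO values lay between the controls. Its log2 fold change was -0.15, with a 95% interval from 0.565-fold to 1.43-fold, and was 0.23 without control replicate 2.

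Within each library, where scaling between libraries plays no part, α was the least abundant of the 3 subunit transcripts. Scnn1a made up 7.93% and 6.63% of the summed FPKM of the 3 subunits in DKO libraries and 15.1% and 13.5% in the controls. The share was lower in both DKO libraries than in either control. Scnn1b was 6.61 and 8.04 times as abundant as Scnn1a in DKO libraries and 3.45 and 3.55 times in the controls. The mean log2 ratio of Scnn1a to Scnn1b was -2.87 ± 0.200 in DKO libraries and -1.81 ± 0.0284 in the controls (SD, n = 2 each), a difference of -1.06. Against Scnn1g the mean log2 ratio was -2.46 ± 0.196 and -1.32 ± 0.290, a difference of -1.14. The groups did not overlap in either ratio, and each gave an exact two-sided permutation p of 0.333, the smallest possible. These 2 ratios share Scnn1a. The log2 ratio of Scnn1b to Scnn1g, added after the values were seen, was 0.41 ± 0.00394 in DKO libraries and 0.49 ± 0.261 in the controls, with overlap.

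**Figure D2:**
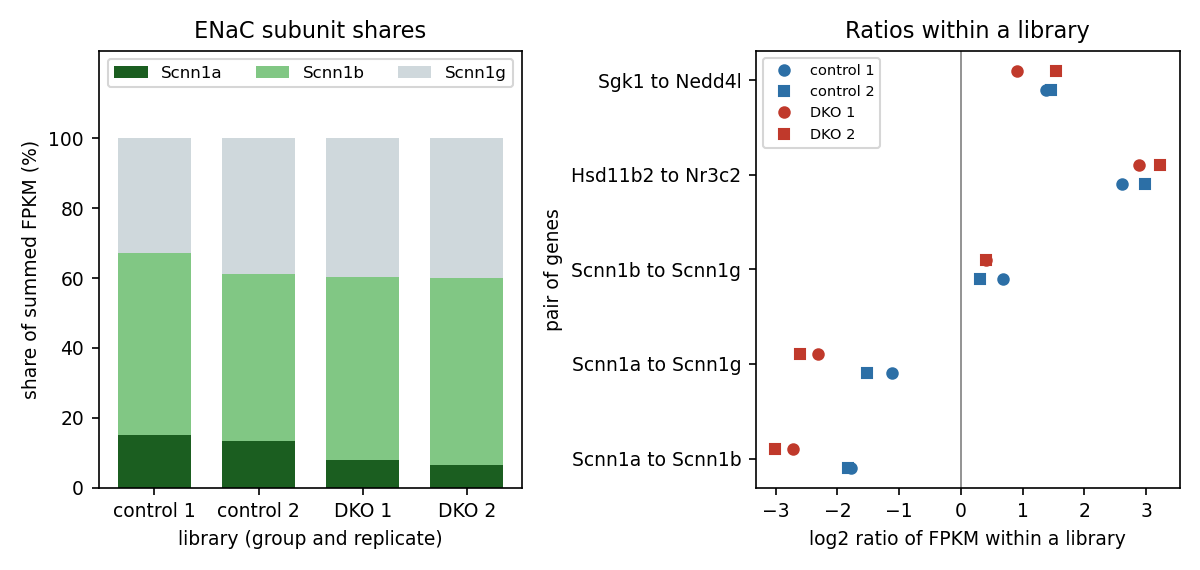
Left, share in percent of each subunit in the summed FPKM of Scnn1a, Scnn1b and Scnn1g per library. Right, log2 ratio of FPKM between pairs of genes within each library, where the red DKO points of both ratios with Scnn1a (-2.32 and below) lie left of the blue control points (-1.83 and above for Scnn1b, -1.52 and above for Scnn1g) and the other 3 ratios overlap.

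Nr3c2, the receptor gene, had the lowest average of the 10 in each group. It was listed at 6.37 and 4.77 FPKM in DKO libraries against 6.85 and 7.61 in control libraries. The DKO values were below both controls by a narrow margin, and the 95% interval of the difference ran from 0.540-fold to 1.13-fold (adjusted p = 0.610 by limma). The log2 fold change of Nr3c2 was -0.36, and -0.17 without DKO replicate 2 and -0.55 without DKO replicate 1. Hsd11b2, the enzyme that guards the receptor, had the highest average in each group, at 46.9 and 44.8 FPKM against 41.9 and 60.4. Both DKO values lay between the controls (log2 fold change -0.13, 95% interval 0.648-fold to 1.28-fold), and the log2 fold change was 0.13 without control replicate 2. The level of Hsd11b2 was 7.36 and 9.39 times that of Nr3c2 in DKO libraries and 6.11 and 7.94 times in the controls, so the ratio of enzyme to receptor transcript overlapped between the groups.

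Sgk1 encodes the kinase that carries much of the early aldosterone response. It was listed at 31.5 and 46.6 FPKM in DKO libraries against 30.4 and 53.2 in control libraries. The replicates of either group differed from each other by more than the group averages did, 39.1 ± 10.7 and 41.8 ± 16.1 FPKM (SD, n = 2 each). The log2 fold change was -0.07 (95% interval 0.534-fold to 1.70-fold), and its sign turned with values rescaled to TPM (0.06) and without DKO replicate 1 (0.21) or control replicate 2 (0.33). Of 8 immediate early genes, which are induced by cell handling, 7 lay below both controls in DKO libraries, with summed levels of 267 to 341 FPKM against 488 to 1090. Control replicate 1 had the highest of these sums and the lowest Sgk1 value. The part of such handling in the Sgk1 values was not tested.

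Sgk1 is a textbook target of corticosteroid receptors, which bind DNA as dimers at the palindrome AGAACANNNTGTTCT, and a match to it in an Sgk1 promoter is shown as an example of such an element. RefSeq promoter windows, of 250 bases before to 50 bases after a start (build GRCm38), were at hand for 7 of the 10 genes. There were 14 windows in all, of which Sgk1 had 6. For Scnn1a, Hsd11b2 and Nedd4l no window was at hand, so their promoters were not searched. The palindrome, which reads the same on both strands, occurred in 3 of 32851 windows of all genes, or 0.0091%, and in 1 of the 14. That window belongs to 1 of the 6 Sgk1 starts, and its palindrome begins 189 bases before the start. It is shown with 7 bases on either side, on the plus strand at chr10:21993694-21993722, with its half-sites in capitals:
Sgk1: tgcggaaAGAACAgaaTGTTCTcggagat
A half-site (AGAACA on either strand), within the palindrome or not, was in 19.0% of all windows. It was in 5 of the 14, which belong to Sgk1, Kcnj1 and Tsc22d3 and include the Sgk1 window with the palindrome. Such matches are letters in a window and were not measured as binding here.

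Nedd4l, the ligase that Sgk1 restrains, was the only one of the 10 with a positive log2 fold change, 0.12. It stood at 16.8 and 16.0 FPKM in DKO libraries, between control values of 11.7 and 19.3, and the 95% interval ran from 0.693-fold to 1.70-fold. Without control replicate 1 the log2 fold change was -0.23. The log2 ratio of Sgk1 to Nedd4l was 1.22 ± 0.451 in DKO libraries and 1.42 ± 0.0609 in the controls (SD, n = 2 each) and overlapped. Tsc22d3 encodes the glucocorticoid-induced leucine zipper protein, another hormone target, which acts on ENaC at the membrane. Its values were 34.8 and 38.7 FPKM in DKO libraries against 51.2 and 43.8 in control libraries, without overlap (log2 fold change -0.36, standard error 0.125, adjusted p = 0.431 by limma). Without control replicate 1 the log2 fold change was -0.25.

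Tsc22d3 was the only one of the 10 that was higher in control replicate 1 than in control replicate 2. It is also expressed in blood cells, and the leukocyte markers had the same order among the controls. The 7 tested leukocyte markers summed to 1231 FPKM in control replicate 1, 596 in control replicate 2 and 319 to 331 in DKO libraries. A further marker, the T cell gene Cd3e, stood at 0.0903 FPKM or less in every library. The part of leukocytes in the Tsc22d3 values was not tested.

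Kcnj1 encodes ROMK, the channel through which principal cells secrete potassium in exchange for sodium and which the thick ascending limb uses to recycle potassium. It was listed at 13.5 and 15.7 FPKM in DKO libraries against 23.0 and 33.0 FPKM in control libraries. The lower control was 1.46 times the higher DKO value. The log2 fold change was -0.89 (standard error 0.205, 95% interval -1.42 to -0.36, adjusted p = 0.380 by limma), and it ranged from -1.15 to -0.64 with each library left out in turn. Fxyd4 encodes CHIF, which in the rat collecting duct raises the sodium affinity of the sodium pump. It stood at 6.80 and 7.17 FPKM in DKO libraries against 7.11 and 10.1 in control libraries, with overlap (log2 fold change -0.26, 95% interval 0.570-fold to 1.22-fold). The log2 fold change of Fxyd4 was -0.50 without control replicate 1 and -0.0249 without control replicate 2.

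Markers of the segments that hold these transcripts did not all differ in the same way. Of 7 principal cell markers 2 lay below both controls, Avpr2 and Elf5, and 5 overlapped. Their sums were 690 and 719 FPKM in DKO libraries against 460 and 812 in control libraries. Aqp2 was the largest part of each sum, at 339 and 374 FPKM against 165 and 393. Of the 8 tested markers of loop of Henle and distal tubule 3 lay below both controls, Slc12a3, Kl and Ptger3, and 5 overlapped, with sums of 167 and 197 FPKM against 179 and 321. Slc12a3, the sodium chloride cotransporter of the distal convoluted tubule, stood at 5.60 and 6.68 FPKM against 26.2 and 21.9. Pvalb, another gene of that segment, was listed at 0 in every library but control replicate 1, at 0.153. Of 6 urothelial markers 4 lay below both controls, with sums of 10.3 to 11.1 FPKM against 16.5 to 32.9, and the 8 proximal tubule markers summed to 124 to 149 FPKM against 296 to 319. The part of these segments in the Scnn1a and Kcnj1 values was not tested.

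**Figure D3:**
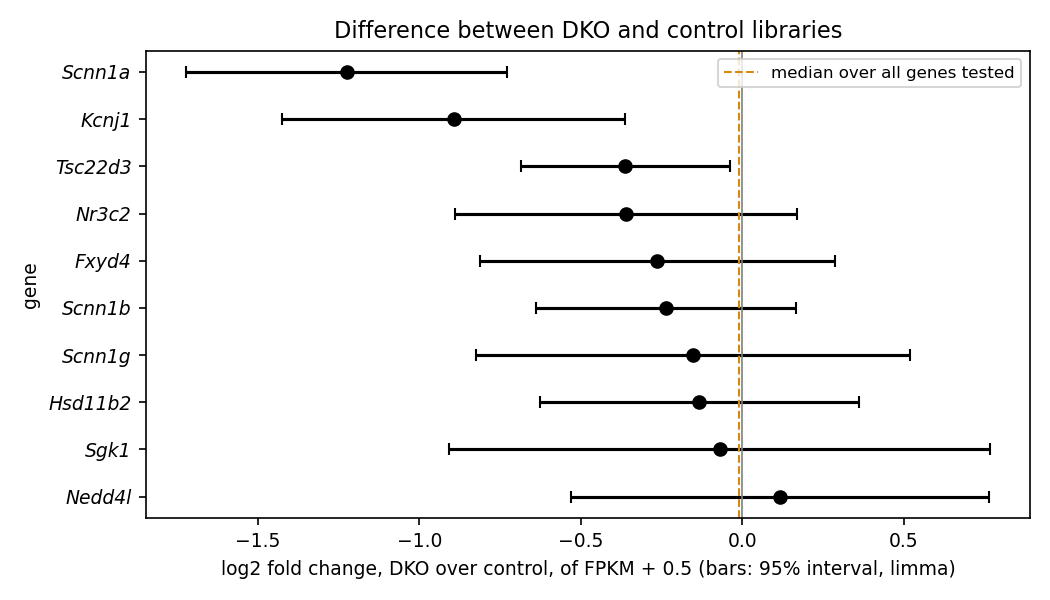
Log2 fold change of each of the 10 genes, DKO over control, as points with the 95% interval from limma, beside the median over all genes tested (dashed, -0.0092). The intervals of Scnn1a, Kcnj1 and Tsc22d3 lie below 0 and the other 7 include it.

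The controls themselves were not alike. In 9 of the 10 genes control replicate 1, the shallowest library, was below control replicate 2, by between 1.11 and 1.75 times. The highest value of the 4 libraries was in control replicate 2 for the same 9. The same counts over all genes are not given here. In control replicates 1 and 2, principal cell markers summed to 460 and 812 FPKM, of which Aqp2 made up 165 and 393. Leukocyte markers summed to 1231 and 596. The part of depth or of cell types in these differences was not tested. For 4 genes, Scnn1g, Hsd11b2, Sgk1 and Nedd4l, both DKO values lay between the control values. The share of all genes for which this holds is not given here either. In the order of levels, which FPKM allow because they are per length, the 6 most abundant genes in the controls, from Hsd11b2 (41.9 to 60.4 FPKM) down through Scnn1b, Tsc22d3, Sgk1 and Scnn1g to Kcnj1 (23.0 to 33.0), each overlapped the next. Nedd4l (11.7 to 19.3) and Scnn1a (12.2 to 15.7) overlapped below a gap, and Fxyd4 (7.11 to 10.1) and Nr3c2 (6.85 to 7.61) below another. Within each control library, Sgk1 lay above Scnn1g, Scnn1g above Kcnj1 and Fxyd4 above Nr3c2. The other overlapping neighbours in this ranking did not keep their order from one control to the next. In the DKO libraries Kcnj1 (13.5 to 15.7) lay below Nedd4l (16.0 to 16.8), and Scnn1a (5.16 to 6.15) lay below Fxyd4 (6.80 to 7.17), each the reverse of its order in both controls. These swaps of order were picked after the values were seen and have no test.

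Other genes of the pathway were grouped in 6 lists. In none of them did a gene pass the test at an adjusted p under 0.05 with a 2-fold difference by limma, and the genes with an unadjusted p under 0.05 were counted beside the 7.35% lower and 3.35% higher of all genes. The first list holds proteases that cleave and activate ENaC and their inhibitors. Of its 7 genes 1 was higher at that p, Serpine2, an extracellular protease inhibitor, at 17.0 and 20.3 FPKM in DKO libraries against 8.19 and 14.3 in control libraries. The list's median log2 fold change was 0.04, but 0.17 with TPM, -0.11 without control replicate 1 and 0.22 without control replicate 2. Prss8, or prostasin, which cleaves the γ subunit, stood at 59.6 and 53.8 against 55.0 and 69.7 FPKM, and St14, or matriptase, at 43.9 and 44.3 against 32.1 and 47.6, both with overlap.

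Of 20 regulators of ENaC trafficking and kinases 3 were lower at that p and 0 higher, with a median of -0.07 that turned to 0.06 with TPM. Wnk1, a kinase of distal salt transport, stood at 57.0 and 52.8 FPKM in DKO libraries against 69.6 and 76.9 in control libraries. The paralogs of Sgk1 were both below both controls. Sgk2 stood at 2.19 and 2.07 FPKM against 3.90 and 3.96, and Sgk3 at 6.68 and 6.50 against 9.64 and 9.56. Their replicates lay closer together than those of Sgk1, and their adjusted p by limma were 0.384 and 0.390.

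Of 10 genes of corticosteroid receptor machinery 0 were lower and 0 higher at that p, with a median of 0.04 that was 0.17 with TPM, 0.0045 without control replicate 1 and -0.0082 without control replicate 2. Nr3c1, the glucocorticoid receptor gene, was listed at 22.0 and 21.3 FPKM in DKO libraries against 22.7 and 25.8 in control libraries, above Nr3c2 in every library. H6pd, which supplies the cofactor of Hsd11b1, stood at 20.0 and 19.1 against 22.7 and 22.3, and the co-chaperone gene Fkbp4 at 198 and 227 against 150 and 208. Of 12 corticosteroid target genes 1 was lower, the transcription factor gene Klf9, at 5.14 and 5.72 against 7.06 and 8.79 FPKM. The median of that list was -0.07, but 0.06 with TPM and 0.04 over its genes of at least 1 FPKM. Ddit4, an inhibitor of mTORC1 signaling, stood at 25.8 and 28.7 against 29.2 and 37.7, and Cnksr3, a scaffold that in mouse kidney cells is induced by aldosterone, at 13.8 in both DKO libraries against 10.2 and 11.9. Cnksr3 and Usp2 are in both the regulator and the target list.

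Of 9 genes of the sodium pump and FXYD family 2 were lower at that p and 0 higher, with a median of -0.34. Fxyd2, the γ subunit of the pump, stood at 165 and 186 FPKM in DKO libraries against 262 and 373 in control libraries, and Atp1b1, its β1 subunit, at 297 and 299 against 401 and 553. Atp1b3, another β subunit, stood at 59.2 and 60.8 against 84.7 and 63.5. Of 10 potassium and chloride channel genes of the distal nephron 6 were lower and 0 higher, with a median of -0.52. They include Kcnj10, a basolateral potassium channel, at 7.04 and 6.96 FPKM against 12.0 and 13.4, and Kcnj15, of the same family as Kcnj1, at 7.03 and 5.73 against 10.7 and 13.0. Kcnj16 and Bsnd were also among the 6. Several of these genes are also expressed in the loop of Henle and the distal tubule, whose markers are given above, and the part of those segments was not tested.

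**Figure D4:**
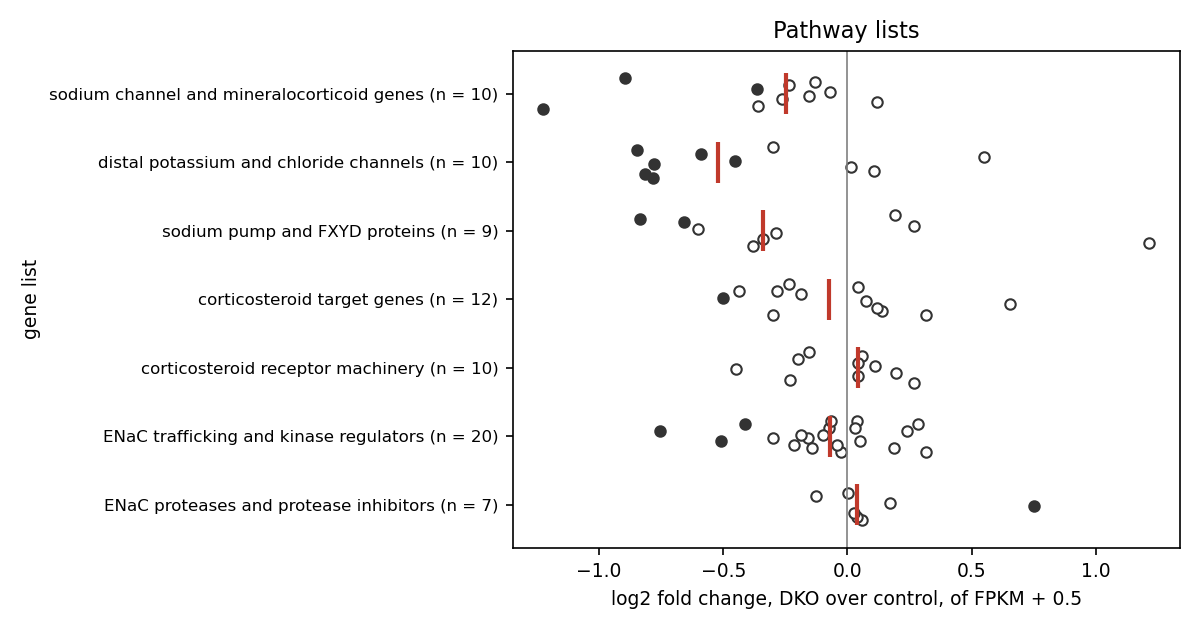
Log2 fold change, DKO over control, of each gene of the 6 pathway lists and of the 10 sodium channel and mineralocorticoid genes, filled where the unadjusted limma p was under 0.05, with the list's median as a red line. The medians run from -0.52 for the distal potassium and chloride channels to 0.04 for the proteases and the receptor machinery, whose signs turn without control replicate 1 and control replicate 2, respectively.

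The genes most like Scnn1a over the 4 libraries were found by the Euclidean distance of centered log2(FPKM + 0.5) among 13439 genes of at least 1 FPKM in every library. Among the nearest 5 were Gm10639, Tmem252, Rdh19 and 0610012H03Rik, at distances of 0.170 to 0.222. A total of 57 genes lay within 2 times the distance of the last of these.

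In GENCODE M21, on the mm10 assembly, Scnn1a lies on the plus strand of chromosome 6 from 125320659 to 125344943 and has 7 annotated transcripts. Its longest coding transcript has 12 exons. Scnn1b and Scnn1g lie on the plus strand of chromosome 7, from 121865038 to 121918514 and from 121734479 to 121768475, with 13 exons each in the longest coding transcript. Kcnj1 lies on the plus strand of chromosome 9 from 32372493 to 32399197, Sgk1 on that of chromosome 10 from 21882184 to 21999903 with 13 transcripts, and Hsd11b2 and Nr3c2 on that of chromosome 8, from 105518755 to 105523988 and from 76899442 to 77245012. Tsc22d3 lies on the minus strand of chromosome X from 140539528 to 140600659 and Fxyd4 on that of chromosome 6 from 117933559 to 117937692. Nedd4l, on chromosome 18 from 64887705 to 65217828, has 34 annotated transcripts. The locus given to Nr3c2 in the deposited table begins further upstream, at 76605225. Another gene overlaps on the same strand for 2 of the 10, Nr3c2 (Gm23260) and Fxyd4 (Gm25535), and whether fragments were shared was not tested. FPKM sum over the transcripts of a gene, so a switch between transcripts of 1 gene was not visible in these values.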

How the data were processed

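The authors mapped strand-specific paired reads of poly(A)-selected libraries to mm10 with the Ensembl transcriptome and deposited 1 FPKM value for each gene in each library. TopHat 1.4.1 and Cuffdiff 2.2.1 are named in the submitters' processing notes. For the scaling between libraries, no method was given in the sources used here. Columns of group averages in the deposited table were left out.

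FPKM are not counts, so limma 3.58.1 in R 4.3.3 was run on log2(FPKM + 0.5) with a variance trend, two-sided, over the 18884 genes whose larger group average exceeded 0.1 FPKM. A gene was called where its p, after Benjamini-Hochberg adjustment, was under 0.05 and its group averages differed by 2-fold or more. The fit was also run on simulated data, whose outcome is not reported here and is not used as support. Fold changes on this scale understate those of low genes. Relative depth was read from values up to 0.3 FPKM. Annotation and figures used Python 3.11.15 and matplotlib 3.10.9.

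The genes, lists and markers were chosen with earlier results of these data known. All 10 genes are named. From each pathway list the 3 genes with the smallest unadjusted p and at least 1 FPKM in a group are named, except where a gene is not reported here, as is also so for the genes most like Scnn1a. Kcnj16, Bsnd, Usp2 and single markers were named outside that rule, after their values were seen. Alternatives were other pseudocounts, filters, scalings and variance settings, a replicate block and each library left out. No amino acid sequences were used here.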

Additional observations from a re-analysis of the deposited data

How the results depend on the processing

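None of the 10 genes was called under any of the 14 alternatives, in which the adjusted p of Scnn1a by limma ranged from 0.149 to 0.960 and that of Kcnj1 from 0.138 to 0.960. Over all genes 4 were called (1 lower, 3 higher). The number was 1 with every gene above 0 FPKM tested, 8 (2 lower, 6 higher) with values rescaled to TPM after mitochondrial transcripts were left out, 2 without a variance trend and 0 to 0 with each library left out. With plain TPM it was 6 (0 lower, 6 higher) and with median-ratio scaling 3 (0 lower, 3 higher). TPM moved the median log2 fold change of all genes to 0.11 and that of Sgk1 to 0.0613. It also moved Scnn1b to -0.10, Scnn1g to -0.0221, Hsd11b2 to -9e-04, Nedd4l to 0.25, Tsc22d3 to -0.23 and Fxyd4 to -0.14. The replicate block gave 16 calls (10 lower, 6 higher) and 0 among the 10 genes. Labels do not say that replicate numbers pair the samples, and deviations of same-numbered libraries had a correlation of 0.10 across 18884 genes. With each library left out, the log2 fold change ranged from -0.53 to 0.23 for Scnn1g, from -0.39 to 0.13 for Hsd11b2, from -0.47 to 0.33 for Sgk1 and from -0.23 to 0.47 for Nedd4l, while that of the other 6 genes kept its sign. A left-out library leaves 1 in its group, assumed to vary like the other group. The cause of these shifts was not tested.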
